A study of Mus musculus with 2 samples.

Results

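The 6 genes with the symbols Cebpa, Cebpb, Cebpd, Cebpe, Cebpg and Cebpz, out of 32285 gene identifiers in both count matrices, were described in leukemic promyelocytes of the mouse with and without retinoic acid. They were chosen by symbol, and all 6 were found once in each matrix. The study sorted late promyelocytes from leukemic bone marrow, taken as FcγR+ and CD34- cells with CD45.2, c-Kit and Gr1, and sequenced single cells with 10x Genomics 3′ chemistry, in which each RNA molecule carries a molecular identifier (UMI). The cells of both groups expressed PLZF/RARA, the fusion of the zinc finger protein PLZF with the retinoic acid receptor alpha. The vehicle group received corn oil with 10% DMSO, and the retinoic acid group received 0.8 to 1 mg of retinoic acid, both by intraperitoneal injection, in a treatment of 7 days. A cohort held 3 to 5 mice, and the labels state neither how many mice gave cells to a library nor their age or strain. Each group was 1 library, which leaves every difference below without a replicate check. No test was made, and differences between mice, sorts or preparations are part of every ratio.

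C/EBP proteins are basic leucine zipper transcription factors that bind DNA as pairs, and in the marrow they drive progenitors toward granulocytes. C/EBPα starts the granulocyte programme and restrains cell division, C/EBPβ serves granulocyte production under stress, and C/EBPε drives the genes of secondary granules late in neutrophil maturation. C/EBPδ is an acute-phase member of the family, and C/EBPγ lacks an activation domain and pairs with other zipper proteins, among them ATF4. Cebpz shares the family's symbol but not its fold: it encodes a CCAAT-binding protein of the nucleolus that takes part in ribosome assembly.

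The basic region, the stretch that touches DNA, is where the family members are most alike, so it shows what they share. With 3′ chemistry reads need not come from this region, so it does not show whether reads could be mistaken between members. The runs shared over whole transcripts, given last, bear on that. The 75 coding bases of this region are printed 5′ to 3′ on the coding strand, with capitals where the base is the same as in Cebpa.
Cebpa: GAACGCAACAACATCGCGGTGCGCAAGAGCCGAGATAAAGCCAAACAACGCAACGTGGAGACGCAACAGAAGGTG
Cebpb: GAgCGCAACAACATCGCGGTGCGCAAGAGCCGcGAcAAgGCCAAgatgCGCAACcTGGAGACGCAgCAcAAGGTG
Cebpd: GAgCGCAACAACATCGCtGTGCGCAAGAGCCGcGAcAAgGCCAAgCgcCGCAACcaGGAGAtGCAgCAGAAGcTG
Cebpe: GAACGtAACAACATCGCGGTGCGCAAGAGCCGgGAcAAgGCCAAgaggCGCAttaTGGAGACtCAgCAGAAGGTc
Cebpg: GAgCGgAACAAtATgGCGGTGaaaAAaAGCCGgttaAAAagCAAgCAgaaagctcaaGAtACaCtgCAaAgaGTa
In GRCm38 (GENCODE M21 annotation) these stretches lie, in the order printed, at chr7:35120289-35120363 (plus strand), chr2:167689709-167689783 (plus), chr16:15887919-15887993 (plus), chr14:54710677-54710751 (minus) and chr7:35050555-35050629 (minus), each within 1 exon. Cebpb had 85.3% of the bases of Cebpa, Cebpd 82.7%, Cebpe 81.3% and Cebpg 56.0%. No stretch of the 1052 codons of Cebpz had more than 53.3% of the same bases, and that one was picked as the best of all its windows. The stretches of Cebpb, Cebpd, Cebpe and Cebpg were picked in the same way. That of Cebpa was picked as the one most like these genes. The longest run of identical bases between the transcripts of any pair of members was 29 bases, between Cebpa and Cebpb, followed by 27 bases between Cebpb and Cebpd.

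Cebpa (ENSMUSG00000034957, chromosome 7, 35119293 to 35121928, plus strand) and Cebpg (ENSMUSG00000056216, chromosome 7, 35046422 to 35056573, minus strand) are neighbours, 62.7 kb apart. Cebpb (ENSMUSG00000056501) lies on chromosome 2 (167688915 to 167690418, plus strand) in 1 exon, Cebpd (ENSMUSG00000071637) on chromosome 16 (15887286 to 15891031, plus strand), Cebpe (ENSMUSG00000052435) on chromosome 14 (54710360 to 54712174, minus strand, 2 exons) and Cebpz (ENSMUSG00000024081) on chromosome 17 (78919006 to 78937066, minus strand). The annotation places Cebpzos on the opposite strand across Cebpz, Tmem189 across Cebpb, Spidr across Cebpd and Gm45091 across Cebpa. Gm45095 lies on the opposite strand across Cebpg, and Gm44836 and Gm45094 overlap it on its own strand. Cebpzos, at 43.8 counts per 1000000 UMIs (CPM) under vehicle and 41.1 CPM under retinoic acid, is close in level to Cebpz, and whether counting used strand is not stated. Tmem189 (22.2 and 21.5 CPM), Spidr (15.8 and 16.3 CPM) and Gm45091 (4 counts and 1 count) were nearly level between the libraries or close to 0. Gm44836 had 3 counts and 5 counts, Gm45095 had 0 counts in each library, and Gm45094 was not analysed here.

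Filtering kept 5476 vehicle cells, with 99107718 UMIs in all and a median of 16750 each, and 7140 retinoic acid cells, with 110088247 and 14604. The libraries shared 11 barcodes. Of 12 promyelocyte markers none was at 0 in either library, and 1, Mpo, was under 1 CPM in the retinoic acid library. The libraries stood apart in other lineages' genes. The summed level of 8 mast cell or basophil markers, led by Cpa3, was 805 CPM under vehicle and 68.1 CPM under retinoic acid, with 1 and 3 of the 8 at 0. That of 10 maturing neutrophil markers was 1636 and 62091 CPM, with none at 0. Eosinophil markers summed to 126 and 34.7 CPM, with 1 of 8 at 0 in each, and monocyte or dendritic, erythroid and megakaryocyte markers each to under 30 CPM. Lymphoid markers summed to 1287 and 578 CPM, with 6 of 8 under 1 CPM and 2 at 0 in each library. The part of these differences in the results below was not tested, except where a value is given.

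In library totals, retinoic acid cells carried more RNA of Cebpd and Cebpb than vehicle cells. They carried slightly less of Cebpa and Cebpe, values that depend on the mix of phases (given below), and like amounts of Cebpg and Cebpz. Levels are in CPM of the whole library, and the bracketed 95% intervals cover counting error only. Cebpd stood at 98.3 CPM (96.3 to 100.2) under vehicle and 209.2 CPM (206.5 to 212.0) under retinoic acid, from 9740 and 23034 counts. This was a log2 ratio of 1.09 (1.06 to 1.12), or 2.13-fold. Cebpb stood at 161.8 CPM (159.3 to 164.3) and 259.5 CPM (256.5 to 262.6), a log2 ratio of 0.68 (0.65 to 0.71). Cebpe, the most abundant member in both libraries, was at 400.5 CPM (396.6 to 404.5) and 358.7 CPM (355.2 to 362.3), a log2 ratio of −0.16 (−0.18 to −0.14). Cebpa was at 47.2 CPM (45.9 to 48.6) and 40.2 CPM (39.0 to 41.4), a log2 ratio of −0.23 (−0.29 to −0.17). The libraries' counting intervals did not overlap for these 4 genes, but at this depth small differences also give this. How many of all genes do so was not counted, so it does not set these members apart.

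Cebpg, at 27.4 CPM (26.3 to 28.4) and 26.2 CPM (25.3 to 27.2), had a log2 ratio of −0.06 (−0.14 to 0.01). Cebpz, at 54.5 CPM (53.1 to 56.0) and 55.2 CPM (53.9 to 56.6), had a log2 ratio of 0.02 (−0.03 to 0.07). Counting error alone covers both differences. All 6 members reached 20 CPM, the limit set for comparing genes, and 1 of them, Cebpd, differed at least 2-fold. Among all 5548 genes at that limit, 8.07% differed at least 2-fold, with 3.03% higher and 5.05% lower under retinoic acid. The median log2 ratio was −0.02 over the 6 members, 3 above and 3 below 0, and 0.01 over all genes. Scaling that discounts the most abundant genes (TMM) added 0.08 to every log2 ratio, which put Cebpg at 0.02 and left the other 5 on their side of 0.

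In each library the order of levels began with Cebpe, Cebpb and Cebpd and ended with Cebpz, Cebpa and Cebpg, with no overlap of counting intervals between neighbours. Counts from 3′ ends do not grow with transcript length, but capture may differ between genes, so this order is of captured molecules.

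**Figure D1:**
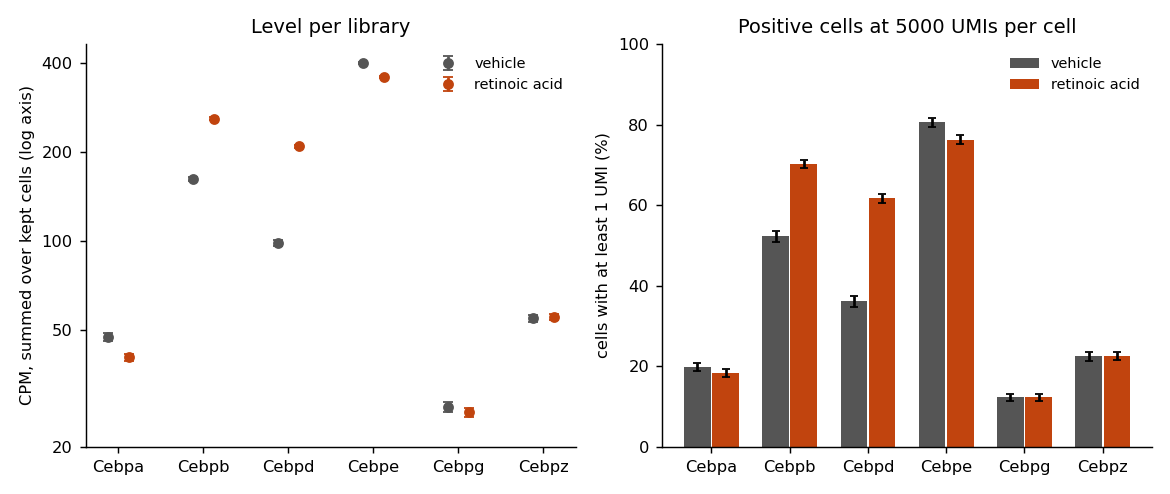
Left, level of each C/EBP gene in CPM (log axis) summed over the kept cells of the vehicle (grey) and retinoic acid (orange) library; right, percent of cells with at least 1 UMI after thinning to 5000 UMIs per cell. Error bars are 95% counting intervals; Cebpd moved from 98.3 to 209.2 CPM and from 36.1% to 61.7% of cells, while Cebpg and Cebpz differed by no more than counting error.

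Whether more cells held each RNA was read after every cell was thinned to 5000 UMIs, which left 5282 vehicle and 6659 retinoic acid cells. Cebpd was found in 36.1% (34.8 to 37.4) of vehicle and 61.7% (60.5 to 62.8) of retinoic acid cells, a difference of 25.5 percentage points (23.8 to 27.3). Cebpb was found in 52.3% (50.9 to 53.6) and 70.2% (69.1 to 71.3), a difference of 18.0 points (16.2 to 19.7). Both genes therefore differed in how many cells held a UMI. This share rises with the mean level, at 0.52 and 1.13 UMIs per cell for Cebpd and 0.82 and 1.35 for Cebpb. It is thus not a result separate from the summed level. Cebpe was found in 80.6% (79.5 to 81.7) and 76.3% (75.2 to 77.3), and Cebpa in 19.8% (18.8 to 20.9) and 18.3% (17.4 to 19.3). Cebpg, at 12.3% in each library, and Cebpz, at 22.5% in each, differed by −0.06 (−1.25 to 1.12) and 0.05 (−1.46 to 1.55) points. Without thinning the differences of Cebpg and Cebpz were −4.51 and −5.09 points, in the direction of the lower depth of the retinoic acid cells. No class of at least 50 cells that should lack these genes was found, so the share that free RNA alone would give could not be measured. Erythroid and megakaryocyte markers were met 3 at a time in 0 cells of either library, and lymphoid markers in 1 vehicle and 0 retinoic acid cells.

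The spread of molecules over cells was read as variance over mean. This quotient tends to rise with the mean level, so it does not rank genes of unlike level by unevenness. At 5000 UMIs a cell held on average 2.10 (vehicle) and 2.06 (retinoic acid) UMIs of Cebpe, with a variance of 1.74 and 2.07 times the mean. For Cebpa, Cebpg and Cebpz, at means of 0.13 to 0.26 UMIs, that quotient lay between 1.01 and 1.07, close to the 1 of random sampling. For Cebpb and Cebpd, at means of 0.52 to 1.35 UMIs, it lay between 1.27 and 1.38. Cells with 5 or more Cebpe UMIs made up 10.7% of the vehicle and 11.8% of the retinoic acid library, although the share of cells with at least 1 was lower under retinoic acid. Cells with at least 2 UMIs of Cebpd made up 11.2% and 30.8%, and of Cebpb 20.1% and 37.2%.

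Most members met in the same cells about as often as their separate shares would give. Cebpb, Cebpd and Cebpe were found together in 15.3% of vehicle cells, where the product of the single shares is 15.2%, and in 34.7% of retinoic acid cells, where it is 33.0%. Cebpb with Cebpe was found in 54.8% (53.6 to 56.0) of retinoic acid cells against a product of 53.6%, and Cebpd with Cebpe in 48.1% (46.9 to 49.4) against 47.0%. Cebpg with Cebpz was found in 3.23% (2.82 to 3.68) of retinoic acid cells against a product of 2.77%, and in 2.44% of vehicle cells against 2.77%. Of the 5 zipper genes without Cebpz, exactly 3 were detected in 23.6% of vehicle and 36.5% of retinoic acid cells, and exactly 4 in 5.30% and 9.97%. None of the 5 was detected in 4.39% and 2.76%.

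The next comparison followed the genes along granule content, since secondary granule genes are textbook targets of C/EBPε. The granule share of a cell is the percentage of its UMIs in 12 secondary and tertiary granule genes (Camp, Ngp, Ltf, Lcn2, Mmp8, Mmp9, Cd177, Pglyrp1, Hp, Chil3, Wfdc21 and Olfm4), none of them a C/EBP gene. Its median was 0.0889% in vehicle cells (5th to 95th percentile 0.0273 to 0.397%) and 2.22% in retinoic acid cells (0.313 to 17.1%). By this share the cells of each library were divided into 4 near-equal groups, and levels were taken as CPM of the UMIs outside the 12 genes, so that granule RNA does not dilute the rest.

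In retinoic acid cells Cebpe, Cebpb and Cebpd stood higher with each step in granule share, Cebpg and Cebpz stood lower, and Cebpa had no single direction. From the group of lowest to that of highest share Cebpe was at 227, 274, 380 and 779 CPM. The top group stood 3.43-fold above the bottom group, a log2 ratio of 1.78 (1.74 to 1.82). Cebpd was at 155, 198, 242 and 324 CPM, a log2 ratio of 1.06 (1.01 to 1.12), and Cebpb at 197, 244, 298 and 399 CPM, a log2 ratio of 1.02 (0.97 to 1.07). Cebpa was at 43.6, 41.6, 37.5 and 44.2 CPM, a log2 ratio of 0.02 (−0.11 to 0.15). Cebpg was at 31.5, 28.5, 24.4 and 21.7 CPM (log2 ratio −0.54, −0.72 to −0.37), and Cebpz at 65.6, 61.5, 54.2 and 41.5 CPM (log2 ratio −0.66, −0.79 to −0.54). The 3 members at least 2-fold higher at the high end compare with 5.26% of 5631 genes, and 10.2% of those genes differed in either direction, at a median log2 ratio of −0.18. Only Cebpe stayed past 2-fold in CPM of all genes, where Cebpb was at 0.83 and Cebpd at 0.88. Cebpb was also short of 2-fold with primary granule genes added to the list (0.91) and in G1 cells alone (0.93).

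The cells of the highest group also held fewer UMIs and were more often scored as G1. Median UMIs per cell were 18124, 16866, 15452 and 10753 over the 4 groups, and cells scored as G1 made up 15.1%, 15.4%, 14.5% and 37.0%. Per cell rather than in CPM, the highest group held 7.96 Cebpe UMIs against 4.31 in the lowest, a log2 ratio of 0.88 (0.84 to 0.93). Cebpb was at 3.74, 4.28, 4.77 and 4.08 UMIs per cell (log2 ratio 0.12, 0.07 to 0.17) and Cebpd at 2.94, 3.47, 3.86 and 3.31 (0.17, 0.11 to 0.23). Cebpa, Cebpg and Cebpz were at −0.87, −1.43 and −1.55. On this scale 1.90% of all genes were at least 2-fold higher and 55.6% at least 2-fold lower in the highest group (57.5% together), with a median of −1.07. Per cell, Cebpb and Cebpd were thus highest in the third group, and their rise from the lowest to the highest group was much smaller than in CPM. How much of the lower UMI number is cell size and how much is capture cannot be told apart.

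Detection at equal depth gave the same order. With all cells thinned to 5000 UMIs, Cebpe was found in 61.9% (59.5 to 64.2) of the lowest and 93.5% (92.2 to 94.6) of the highest retinoic acid group. Cebpd was found in 51.5% and 72.6%, and Cebpb in 61.3% and 78.2%. Cebpz was found in 26.7% and 15.7%, Cebpg in 15.7% and 8.05%, and Cebpa in 19.4% and 18.3%. These shares include the granule genes in each cell's 5000 UMIs.

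Split into 10 groups, the retinoic acid cells showed where the steps lie. Cebpb was higher in each successive group (9 of 9 steps), from 183 to 423 CPM, and Cebpd in 8 of 9 steps, from 133 to 383 CPM. Cebpe was at 235 CPM in the first group and 217 CPM in the second, reached 336 CPM only in the sixth and then stood at 388, 505, 704 and 1068 CPM. Its level in the last group was 4.55 times that in the first. Cebpz was between 64.7 and 68.2 CPM in the first 3 groups and at 32.5 CPM in the last. The last group stood apart in depth (median 8940 UMIs) and phase (58.6% G1), and its cells held 8.44 Cebpe UMIs each against 4.56 in the first group. Per cell Cebpb was at 3.56 UMIs in the first group, 4.97 in the eighth and 3.35 in the last (last against first, log2 ratio −0.09, −0.17 to −0.01), while Cebpd had a log2 ratio of 0.22 (0.13 to 0.32).

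**Figure D2:**
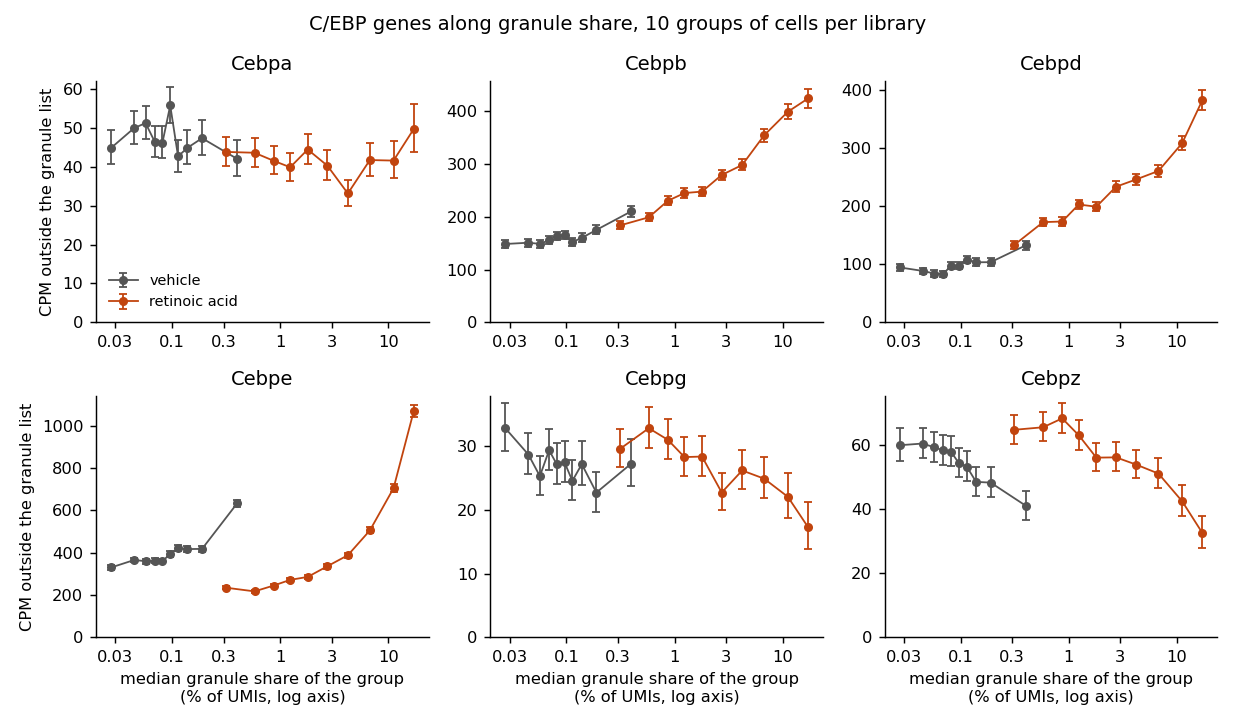
Level of each C/EBP gene (CPM outside the 12 granule genes) in 10 groups of cells of near-equal size per library, plotted at the group's median granule share (percent of UMIs, log axis); error bars are 95% counting intervals. In retinoic acid cells Cebpe runs from 235 to 1068 CPM, below the vehicle line where the shares meet, and Cebpd runs from 133 to 383 CPM.

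**Figure D3:**
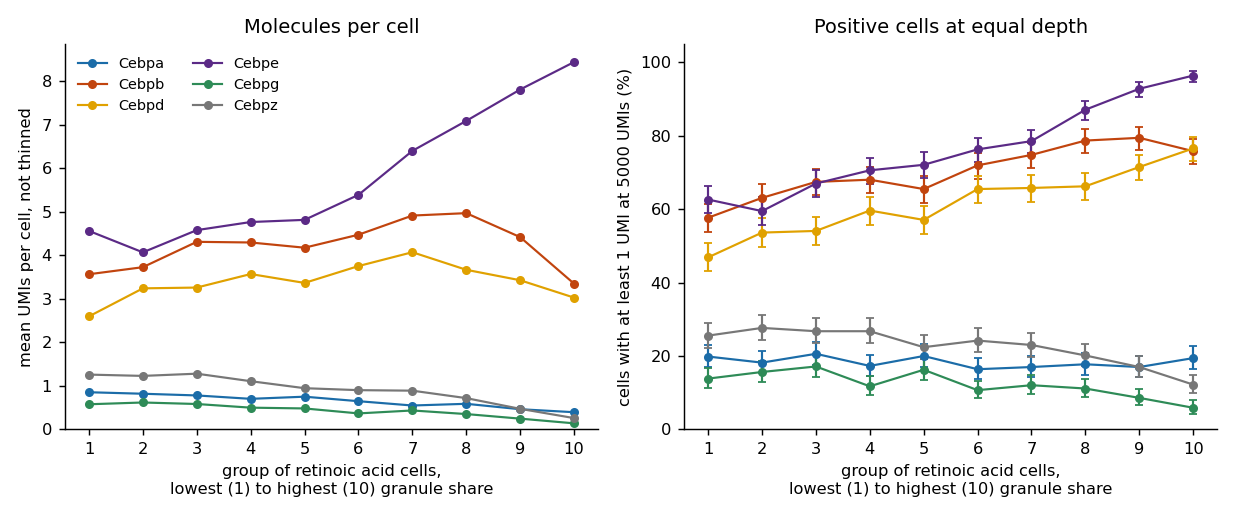
The 10 retinoic acid groups on scales other than CPM: left, mean UMIs per cell without thinning; right, percent of cells with at least 1 UMI at 5000 UMIs per cell with 95% exact binomial intervals. The 5000 UMIs of the right panel include the granule genes. Cebpe reaches 8.44 UMIs per cell in the last group, whereas Cebpb stands at 3.56 in the first and 3.35 in the last.

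In vehicle cells the same members pointed the same way at much lower granule shares, with group medians of 0.0406, 0.0725, 0.109 and 0.214%. The highest group was wide, from 0.139 to 20.2%. Cebpe was at 346, 366, 408 and 497 CPM (log2 ratio 0.52, 0.48 to 0.56). Split into 10 groups, it was at 330 CPM in the first, 393 in the sixth, 418 in the ninth and 632 CPM in the last. That last group ran from 0.247 to 20.2% in granule share. Cebpd was at 89.9, 89.4, 102 and 115 CPM (0.36, 0.27 to 0.44), and Cebpb at 147, 159, 158 and 185 CPM (0.33, 0.27 to 0.39). Cebpa had a log2 ratio of −0.12 (−0.24 to 0.01), Cebpg of −0.28 (−0.44 to −0.12) and Cebpz of −0.40 (−0.51 to −0.28). None of the 6 members differed at least 2-fold, and 1.04% of 5395 genes did. With primary granule genes added to the list, the vehicle log2 ratios became 0.32 for Cebpa, 0.05 for Cebpb, −0.11 for Cebpd, 0.10 for Cebpe and 0.01 for Cebpz. The vehicle values of these 5 genes, and the direction of Cebpa, Cebpd and Cebpz, thus depend on the list, while Cebpg stayed at −0.28.

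Cells within the same bin of granule share were then set side by side between the libraries. Within a bin the retinoic acid cells still had the higher share: the medians were 0.144 and 0.343% at 0.1 to 0.5%, 0.783 and 1.03% at 0.5 to 2%, 3.49 and 3.84% at 2 to 8%, and 11.98 and 13.3% at 8% and over. Ratios were therefore also pooled over 8 narrow strata in each bin (5 in the last) by the Mantel-Haenszel method, chosen after seeing the data, within which the libraries' median shares differed by a factor of at most 1.08. Cebpe was lower in retinoic acid cells at each share compared, which its nearly equal library totals do not show. At a share of 0.1 to 0.5%, Cebpe stood at 433 CPM (426 to 440) in 2041 vehicle cells and 233 CPM (225 to 241) in 796 retinoic acid cells. At 0.5 to 2% it stood at 699 CPM (664 to 736) in 136 vehicle and 252 CPM (247 to 257) in 2360 retinoic acid cells, a log2 ratio of −1.47 (−1.55 to −1.39). At 2 to 8% it stood at 1033 CPM (962 to 1109) in 52 and 387 CPM (380 to 394) in 2043 cells, a log2 ratio of −1.42 (−1.52 to −1.31). At 8% and over it stood at 1157 CPM (1014 to 1316) in 25 and 826 CPM (811 to 841) in 1451 cells, a log2 ratio of −0.49 (−0.67 to −0.29). The intervals did not overlap in any of these bins, although the vehicle cells are few in the upper ones. Below 0.1% only 9 retinoic acid cells were found, and no comparison was made. Pooled over narrow strata the 4 log2 ratios of Cebpe were −0.96, −1.56, −1.48 and −0.55. No member differed at least 2-fold at 0.1 to 0.5%, where 5.58% of genes did, or at 8% and over, where 23.8% did.

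Cebpe was 1 of 6 members at least 2-fold lower at 0.5 to 2%, where 4.98% of 5639 genes were, and at 2 to 8%, where 7.12% of 5854 genes were. Cebpb, by contrast, was at 231 and 229 CPM at 0.5 to 2%, at 282 and 301 CPM at 2 to 8% and at 422 and 404 CPM at 8% and over, with log2 ratios from −0.07 to 0.09 whose intervals hold 0. At 0.1 to 0.5% its log2 ratio was 0.17 (0.10 to 0.23), but −0.01 over narrow strata and 0.02 with S100a8 and S100a9 added to the list. Cebpd was higher in retinoic acid cells in 3 bins, at 107 and 138 CPM, 140 and 188 CPM, and 155 and 241 CPM, with log2 ratios of 0.38, 0.42 and 0.63. The first of these was 0.14 over narrow strata and 0.04 with S100a8 and S100a9 added, and the others were 0.38 and 0.61 over narrow strata. At 8% and over it was at 313 and 333 CPM, a log2 ratio of 0.08 (−0.27 to 0.47). Cebpz was at log2 ratios of 0.43 (0.32 to 0.55), 0.48 (0.19 to 0.80) and 0.85 (0.28 to 1.56) in the first 3 bins. At 8% and over it was at 0.28 (−0.73 to 1.85). Cebpg was at 0.30 (0.14 to 0.47) at 0.1 to 0.5%, and 0.45 over narrow strata. In the bins above, its log2 ratios of −0.06, −0.47 and −0.82 had intervals that held 0. The intervals of Cebpa held 0 in all 4 bins.

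The bins also differed in phase: at 0.5 to 2%, 60.3% of vehicle and 14.8% of retinoic acid cells were in G1. Within G1 cells of that bin, Cebpe stood at 834 CPM in 82 vehicle and 364 CPM in 349 retinoic acid cells (log2 ratio −1.20, −1.31 to −1.08). Within S and G2/M cells it stood at 553 CPM in 54 and 239 CPM in 2011 cells (−1.21, −1.34 to −1.09). It was the 1 member at least 2-fold lower in each, beside 6.45% of genes in G1 and 3.86% in S and G2/M cells. In this bin the lower Cebpe level was thus present in cells scored as G1 and in those scored as S or G2/M, at medians of 12858 and 12543 UMIs per G1 cell. In G1 cells at 8% and over, Cebpe was at 1215 and 1101 CPM (−0.15, −0.34 to 0.06), which counting error covers. Cebpd in the 0.5 to 2% bin was at 177 and 265 CPM in G1 (0.58, 0.37 to 0.82) and at 101 and 179 CPM in S and G2/M cells (0.81, 0.53 to 1.12). In that bin Cebpb was at 0.31 in G1 and −0.22 in S and G2/M cells, so its match between the libraries there averages opposite values.

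**Figure D4:**
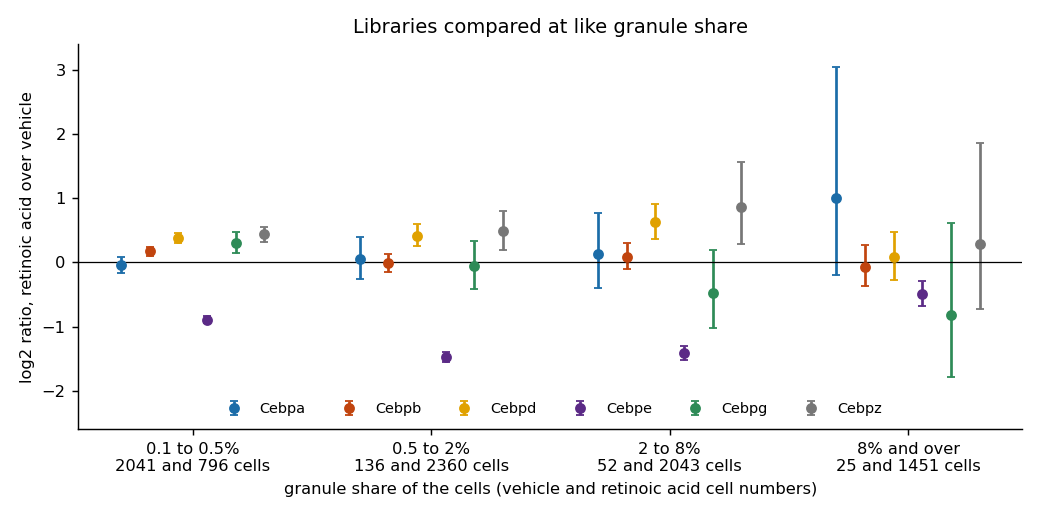
Log2 ratio of retinoic acid over vehicle for each C/EBP gene within fixed bins of granule share, with cell numbers of both libraries under each bin and 95% counting intervals. Cebpe lies below 0 in all 4 bins, at −1.47 for 0.5 to 2%, while Cebpb lies near 0 in the upper 3.

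Cell cycle phase separated the members further. Phases were scored from S and G2/M gene lists at 5000 UMIs per cell, and G1 cells made up 48.7% of the vehicle and 20.5% of the retinoic acid library. Cebpd was higher in G1 than in G2/M in both libraries, at 132 and 77.3 CPM under vehicle and 300 and 177 CPM under retinoic acid, log2 ratios of 0.77 (0.71 to 0.84) and 0.76 (0.71 to 0.81). Cebpe was at 445 CPM in G1, 371 in S and 374 in G2/M of the vehicle, and at 595, 348 and 294 CPM under retinoic acid. Its G1 to G2/M log2 ratio was 0.25 (0.22 to 0.28) in the vehicle and 1.02 (0.98 to 1.06) under retinoic acid. Under retinoic acid, 615 of 1366 G1 cells and 412 of 2654 G2/M cells were in the highest granule group. In that group Cebpe was at 1072 CPM in G1 and 666 CPM in G2/M, and in the lowest at 330 and 194 CPM. The part of granule share in the ratio over all cells was not tested. Cebpa was level over phases in the vehicle, at 46.4, 46.5 and 48.4 CPM, and stood at 55.6, 42.5 and 33.7 CPM in G1, S and G2/M under retinoic acid. Cebpz was lower in G1 than in G2/M in both libraries, with log2 ratios of −0.35 and −0.45.

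Between the libraries, Cebpe was thus higher under retinoic acid in G1 (445 and 595 CPM) and lower in S and in G2/M. In G1 cells within each granule bin compared, it was not higher under retinoic acid. It was at 478 and 342 CPM at 0.1 to 0.5%, and at 834 and 364 CPM at 0.5 to 2%. At 2 to 8% it was at 1192 and 570 CPM (33 vehicle cells), and at 8% and over at 1215 and 1101 CPM (23 vehicle cells). Its library ratio of −0.16 depends on the mix of cells. With retinoic acid cells weighted to the phase shares of the vehicle it became 0.15, and with equal weight for every cell 0.00. The Cebpa library ratio of −0.23 likewise became −0.03 and −0.12. Cebpa was higher under retinoic acid in G1 (46.4 and 55.6 CPM) and lower in S (46.5 and 42.5 CPM) and G2/M (48.4 and 33.7 CPM). Cebpd and Cebpb were higher under retinoic acid in all 3 phases, Cebpb at 147 and 293 CPM in G1, 175 and 263 in S, and 167 and 246 in G2/M.

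Among retinoic acid cells of 1 phase the granule steps remained for Cebpe. In G1 its 4 groups stood at 330, 401, 559 and 1072 CPM (log2 ratio 1.70, 1.61 to 1.79), and in G2/M at 194, 242, 350 and 666 CPM (1.78, 1.71 to 1.85). Cebpd had log2 ratios of 1.08, 0.91 and 0.91 in G1, S and G2/M, and Cebpb of 0.87, 0.87 and 1.13. Cebpa, which showed no direction over all cells, pointed opposite ways by phase: 49.7, 60.9, 61.2 and 65.2 CPM in G1 (0.39, 0.12 to 0.67) and 39.0, 35.4, 31.5 and 28.2 CPM in G2/M (−0.46, −0.73 to −0.22). The Cebpg log2 ratio was −1.12 (−1.57 to −0.69) in G1 and −0.50 in G2/M, and that of Cebpz −1.04 and −0.50.

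**Figure D5:**
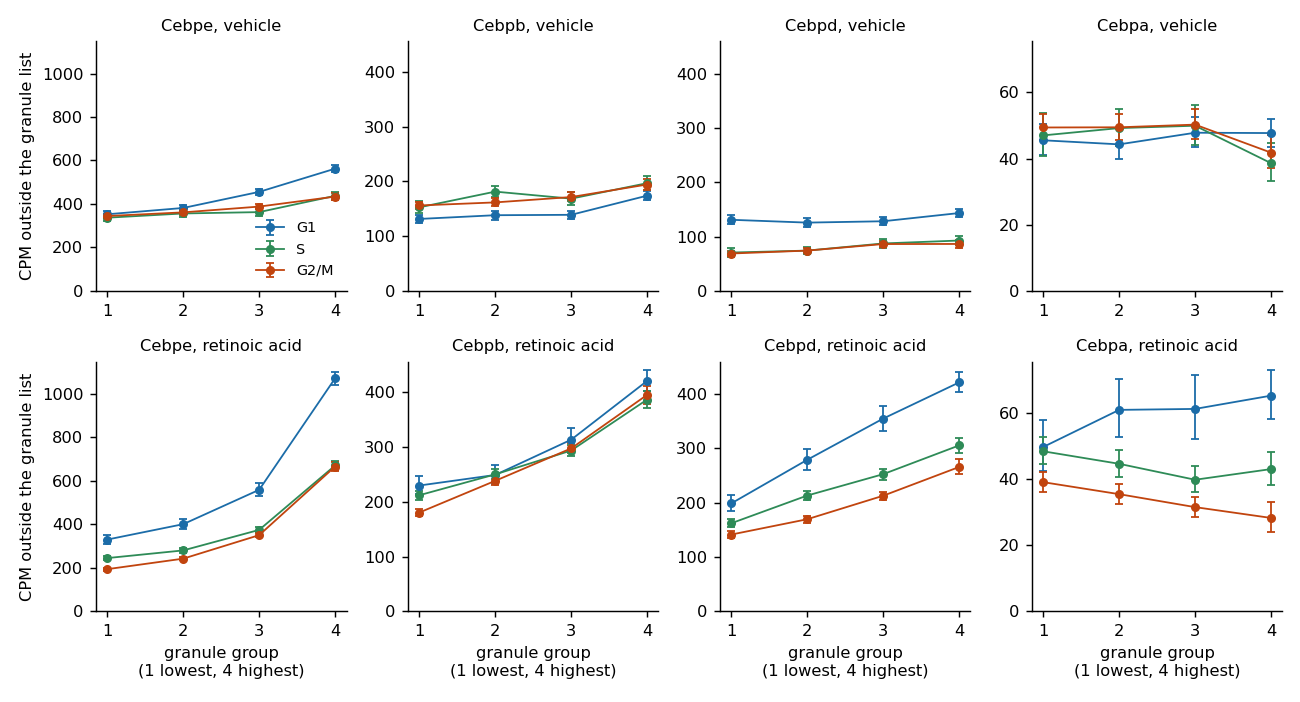
Levels of Cebpe, Cebpb, Cebpd and Cebpa (CPM outside the 12 granule genes) in the 4 granule groups of the vehicle (top) and retinoic acid (bottom) library, by phase, with 95% counting intervals. Cebpe reaches 1072 CPM in retinoic acid G1 cells of the highest group, and Cebpa runs up in G1 and down in G2/M.

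Cells with RNA of other lineages were looked at for the members themselves. Vehicle cells with a Cpa3 UMI and no Mpo UMI (2549 cells) held 417 CPM of Cebpe, and those with Mpo and no Cpa3 (636 cells) held 361 CPM. Cells with neither (1578) held 407 CPM, and Cebpb, Cebpd and Cebpa spanned 151 to 175, 92.1 to 101 and 45.7 to 53.4 CPM over these classes and that with both. The 57 vehicle cells with at least 3 eosinophil markers held 828 CPM (760 to 900) of Cebpe, 240 CPM of Cebpb and 49.7 CPM of Cebpd. The remaining 5225 held 397 CPM (393 to 401), 161 and 98.8 CPM. At a granule share of 0.5 to 2%, leaving out the eosinophil-marker cells kept 135 of 136 vehicle and 2359 of 2360 retinoic acid cells. Cebpe, then at 696 and 252 CPM, could thus hardly move.

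Zipper genes listed as relatives or partners of the C/EBP members were compared next. Of 16 listed, 5 reached 20 CPM, 0 were at least 2-fold higher and 1 at least 2-fold lower (3.03% and 5.05% of all genes), and the median log2 ratio was −0.54 against 0.01 over all genes. Jun, a subunit of AP-1, was at 30.4 CPM under vehicle and 2.31 CPM under retinoic acid (log2 ratio −3.72, −3.91 to −3.54), and Jund at 220 and 110 CPM (−0.99). Junb was at 34.6 and 23.8 CPM (−0.54), and Atf5 at 27.8 and 48.2 CPM (0.79).

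Among 18 genes known to regulate C/EBP genes or proteins, 12 reached 20 CPM, 1 was at least 2-fold higher and 1 at least 2-fold lower, beside 8.07% of all genes in either direction, with a median of 0.18. Id2, an inhibitor of helix-loop-helix factors, was at 33.6 and 74.7 CPM (1.15, 1.10 to 1.21). Calr, whose protein calreticulin can hold back translation of C/EBP messages, was at 1772 and 816 CPM (−1.12, −1.13 to −1.11). Gfi1, a repressor needed for neutrophils, was at 75.4 and 144 CPM (0.93), and Spi1, which encodes the myeloid factor PU.1, at 173 and 293 CPM (0.76).

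Of 12 genes known as activated C/EBP targets, 7 reached 20 CPM, 4 were at least 2-fold higher and 1 at least 2-fold lower, beside 3.03% and 5.05% of all genes, with a median of 1.21. The genes named among them differed in direction: Elane, neutrophil elastase, was at 62.8 and 7663 CPM (6.93), Prtn3, proteinase 3, at 246 and 2819 CPM (3.52), and Ms4a3, a promyelocyte membrane protein, at 850 and 2087 CPM (1.30). Mpo, myeloperoxidase, was at 311 and 0.50 CPM (−9.27). Ctsg, cathepsin G, named after its values were seen, was nearly level at 6444 and 5979 CPM (−0.11). Of 3 repressed targets 1 reached 20 CPM, Myc, at 119 and 116 CPM (−0.04). The others lay below that limit and were named after their values were seen. Sox4 had 172 counts under vehicle and 8 under retinoic acid (−4.49, −5.81 to −3.57), and Mycn had 0 counts in each library. All 9 of 12 granule genes that reached 20 CPM were at least 2-fold higher, with a median of 4.39, led by Camp (6.70), Wfdc21 (5.95), Cd177 (4.57) and Ltf (4.47).

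Of the genes tied to the roles of Cebpz, Cebpg and Cebpb outside granule formation, those that reached 20 CPM stayed within 2-fold. Of 18 nucleolar ribosome assembly genes 17 reached 20 CPM, 0 passed 2-fold either way, 12 were below and 5 above 0, and the median was −0.23. Nop2 (−0.62), Noc4l (−0.50), Noc2l (−0.46) and Npm1 (−0.43) lay farthest from 0. Of 14 genes of the ATF4 stress response 7 reached 20 CPM and 0 passed 2-fold, with a median of −0.41. Phgdh of serine synthesis was at 271 and 147 CPM (−0.88), Nupr1 at 34.8 and 19.7 CPM (−0.82), Atf5 at 0.79, and Psat1 at 85.8 and 63.1 CPM (−0.44). Of 11 inflammatory genes only Sod2, mitochondrial superoxide dismutase, reached 20 CPM, at 143 and 108 CPM (−0.40). Others lay below that limit and differed more, and some were named after their values were seen. Il6, an inflammatory cytokine, had 244 counts under vehicle and 0 under retinoic acid, and Ccl3, a chemokine, 115 and 22. Il1rn, the antagonist of the interleukin-1 receptor, had 35 and 332 counts, a log2 ratio of 3.08 (2.59 to 3.64). Trib3, of the ATF4 list, was at 11.8 and 5.58 CPM (−1.08).

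For each member the 3 genes with the most similar profile over the 10 retinoic acid groups were picked by Pearson correlation of log2 CPM, among 5123 genes. The groups come from 1 library and differ in depth and phase, so these are descriptions. Cebpe was most like Rhou (r = 0.996, 20.9 CPM in the first and 172 CPM in the last group), Ptms and Gpx4. Cebpd was most like Clec12a (r = 0.996), Sorl1 (8.42 and 99.3 CPM) and Ets1, and Cebpb like Ifi27 (r = 0.996), Ces1d and Cystm1 (36.9 and 187 CPM). Cebpz was most like Magt1, Sfpq (301 and 147 CPM) and Psmd12, and Cebpg like Dync2li1 (r = 0.98), Phax and Tada3. Cebpa, with its shallow profile, reached only 0.84, with Exoc3, followed by Nlrx1 and Pdcl3.

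Promoter sequence is shown for Cebpa and Cebpb, which lay on opposite sides of 0 between the libraries. RefSeq promoters on GRCm38.p6, from 250 bases before to 50 after the start, were found for Cebpa, Cebpb and Cebpg. They are printed 5′ to 3′, with capitals at matches to the motifs searched. TTGCNNAA stood for C/EBP sites, CCAAT for the box of that name and TGACG for the core of CREB and ATF sites. The half-site of retinoid receptors was searched as AGGTCA with its variant GGGTCA, and further as AGTTCA together with its variant GGTTCA. These were searched on both strands, and TATAAA on the plus strand.
Cebpa: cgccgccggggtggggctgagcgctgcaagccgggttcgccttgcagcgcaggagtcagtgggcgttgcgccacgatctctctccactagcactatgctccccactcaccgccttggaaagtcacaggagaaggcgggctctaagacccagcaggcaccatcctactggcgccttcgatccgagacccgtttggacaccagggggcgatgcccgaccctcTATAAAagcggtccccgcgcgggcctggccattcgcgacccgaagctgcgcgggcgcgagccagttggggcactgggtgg
Cebpb: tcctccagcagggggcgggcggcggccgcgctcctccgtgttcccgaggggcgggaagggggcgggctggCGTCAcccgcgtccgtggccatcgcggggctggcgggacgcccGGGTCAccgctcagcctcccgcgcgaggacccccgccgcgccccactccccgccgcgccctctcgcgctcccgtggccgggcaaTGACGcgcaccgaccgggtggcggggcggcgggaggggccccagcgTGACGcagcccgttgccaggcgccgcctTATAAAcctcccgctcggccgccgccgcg
They lie at chr7:35119043-35119342 and chr2:167688665-167688964, both on the plus strand. The Cebpb promoter held TGACG 3 times (present in 20.8% of 32851 promoters of this length), GGGTCA once (any of the half-sites: 43.7%) and TATAAA once (8.32%). Its TATAAA lay 21 bases after the start. The Cebpa promoter held only TATAAA, 30 bases before the start, and that of Cebpg held CCAAT 2 times (37.4%) and GGGTCA once. None of the 3 held TTGCNNAA, which 10.8% of promoters did. A match describes these letters and not a bound site, and the files hold no binding data.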

How the data were processed

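Sorted promyelocytes of 1 vehicle and 1 retinoic acid library were measured. The authors deposited unnormalized UMI counts by gene and barcode. Per the file headers they come from Cell Ranger 4.0.0; the builds named in the submitters' processing notes are mm10 and GRCm38.p4, and the gene annotation and cell-calling rule are not given in the sources used here. Of the identifiers, 32158 of 32285 matched GENCODE M21.

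Cells with at least 1000 UMIs, at least 500 genes and at most 10% mitochondrial UMIs were kept, removing 310 vehicle and 276 retinoic acid barcodes. Scrublet called 1 vehicle (0.0183%) and 7 retinoic acid cells (0.0980%) doublets, was taken as not having worked, and none were removed. Counts were summed per library or group. CPM carry exact Poisson, ratios (0.5 counts added) exact conditional binomial, shares Clopper-Pearson and share differences Newcombe 95% intervals; PCR and mice are not covered. A sum of 0 allows 3 counts (0.0303 and 0.0273 CPM). Thinning to 5000 UMIs left out 194 and 481 shallower cells. Phases came from scanpy 1.11.5 (43 S and 54 G2/M genes); TMM came from edgeR 4.0.16.

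Members and gene lists were chosen with earlier results of these data known. Named were all members, the 4 largest log2 ratios among the genes of each list that reached 20 CPM in a library, and the 3 genes most like each member. On simulated counts for the comparison of the libraries, 5199 genes reached 20 CPM, and 100 of 100 changed 3-fold, 0 of 100 changed 1.5-fold and 0 of 4999 unchanged genes were called at least 2-fold different. The simulation drew counting error only, and at this depth a 2-fold limit separates these sizes by construction. It checks the calculation and gives no rate of false calls, since differences between mice, sorts or preparations were not simulated.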

Additional observations from a re-analysis of the deposited data

How the results depend on the processing

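Of 272 recomputed values, 159 lay inside the reported value's counting interval, or for counts of genes within a factor of 1.5, 108 lay outside it, and 5 lay outside it and changed the sign of a value whose interval excluded 0. Among the 159 and 108, a further 16 changed the sign of a value whose interval held 0. All deposited barcodes, a mitochondrial limit of 5%, removal of the 5% highest doublet scores moved none of the values they were tried on. Nor did leaving out cells of at most 0.1% mitochondrial UMIs, or cells with at least 3 eosinophil markers, both chosen after seeing the data. The eosinophil setting kept 135 of 136 vehicle and 2359 of 2360 retinoic acid cells at a granule share of 0.5 to 2%, so it could hardly move values there. Unless a setting's construction gives it, the cause was not tested. No paired analysis was possible because a treatment gave only 1 library.

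For the log2 ratio of the libraries, in the order Cebpa, Cebpb, Cebpd, Cebpe, Cebpg, Cebpz, TMM scaling gave −0.15, 0.76, 1.17, −0.079, 0.019 and 0.10. Equal weight per cell gave −0.12 for Cebpa, 0.73 for Cebpb, 0.0036 for Cebpe (a change of sign) and −0.15 for Cebpg. Leaving the granule list out of the total gave 0.74 for Cebpb, 1.14 for Cebpd, −0.11 for Cebpe and 0.073 for Cebpz. Vehicle shares of phases gave −0.027 for Cebpa, 0.78 for Cebpb, 1.22 for Cebpd, 0.15 for Cebpe (a change of sign) and −0.073 for Cebpz. The differences in positive cells were −7.55, 8.80, 17.1, −0.90, −4.51 and −5.09 points without thinning, and 16.1 (Cebpb) and 20.6 (Cebpd) at 3000 UMIs.

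For the highest against the lowest granule group of retinoic acid cells, in the same gene order, 10 groups gave 0.18, 1.21, 1.52, 2.19, −0.77 and −0.99. The total of all genes gave −0.16, 0.83, 0.88, 1.59, −0.72 and −0.84. With S100a8 and S100a9 added to the list the values were 0.26, 1.18, 1.27, 1.84, −0.34 and −0.48. UMIs per cell, chosen after seeing the data, gave −0.87, 0.12, 0.17, 0.88, −1.43 and −1.55. G1 cells alone, regrouped, gave 0.27 (Cebpa), 0.93 (Cebpb), 1.83 (Cebpe), −1.19 (Cebpg) and −1.18 (Cebpz). Primary granule genes added gave 0.91 (Cebpb), 1.14 (Cebpd) and 1.56 (Cebpe), and in vehicle cells turned Cebpd to −0.11 and Cebpz to 0.0063.

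At a granule share of 0.5 to 2%, settings chosen after seeing the data gave, in G1 cells, 0.52 for Cebpa, 0.31 for Cebpb, −1.20 for Cebpe and 0.59 for Cebpg. In S and G2/M cells they gave −0.22 for Cebpb, 0.81 for Cebpd, −1.21 for Cebpe and −0.45 for Cebpg. Pooling over narrow strata of share gave −1.56 for Cebpe, and at 0.1 to 0.5% turned Cebpb to −0.0053. Genes at least 2-fold higher and lower numbered 305 and 618 at 5 CPM, 56 and 77 at 100 CPM, and 2063 and 4018 with no limit, since more or fewer genes were compared; TMM scaling kept both counts within 1.5 times.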
